A study of Mus musculus with 12 samples.

Results

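Crem, Cul2, Bambi, Lyzl1, Map3k8, Papd1 and Svil are neighbouring genes at the centromeric end of mouse chromosome 18, where many liver tumors of the Mdr2-knockout (Mdr2-KO) mouse gain DNA copies. They were taken by name: 17 array probes carry one of these 7 gene names, out of 42235 positioned probes and 20630 gene names on the array, and all 17 were followed in all 12 tumors. The genes were selected on high tumor over non-tumor ratios in these same arrays. Their levels are therefore given as a description, with no test of whether they are high.

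Crem, the cAMP responsive element modulator, encodes both activators and repressors of transcription that bind cAMP response elements, and liver cells induce its repressor form when cAMP signalling rises. Cul2 is the scaffold of a ubiquitin ligase that includes the von Hippel-Lindau protein, Bambi is a pseudoreceptor that dampens BMP and TGF-beta signalling, and Map3k8 (Tpl2) is a kinase that activates the MEK and ERK cascade. Papd1, now named Mtpap, adds poly(A) tails to mitochondrial RNA, Lyzl1 is a lysozyme-like gene known mainly from testis, and Svil (supervillin) ties actin to the cell membrane. In tumors, an amplification usually carries a run of neighbouring genes, so the genes within it rise together at the DNA level whether or not each is of use to the tumor. The arrays read DNA and say nothing about expression.

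Each of the 12 arrays compared tumor DNA, labelled red with Cy5, with DNA from matched non-tumor liver away from the tumor, labelled green with Cy3. All mice lacked Mdr2, the phospholipid transporter of the bile canaliculus, on the FVB background, so the ratio cannot check the knockout, which both channels share. The post-PHx group held 6 tumors from 9-month-old mice (PHx1M, PHx2F, PHx3M, PHx4M, PHx5M and PHx6F) that had lost 70% of the liver by partial hepatectomy (PHx) at the age of 3 or 6 months. The spontaneous group held 6 tumors from mice that were not operated on, 14 months old for the males Spon1M and Spon2M and 13 months old for the females Spon3F, Spon4F, Spon5F and Spon6F. The last letter of a tumor's name gives the sex. Per the study's methods, the tumors were well differentiated hepatocellular carcinomas made up mostly of tumor cells. A tumor is a mixture, so a low gain in all cells and a higher gain in some of them cannot be told apart. Age, operation and tumor group also go together and cannot be told apart. Each tumor has 1 array, so the spread between tumors includes the spread between hybridizations.

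Values are log2 ratios of tumor over non-tumor liver, centred on the autosomal median of each array, so that 0 is the level of most autosomal probes and 1 is a 2-fold ratio. A gene's value is the mean over its probes. The noise of single probes, estimated from differences between neighbours, ran from 0.147 to 0.265 over the 12 arrays. Median signal over background ran from 7.08 to 26.0 in green and from 3.80 to 11.9 in red. The groups overlapped in red and in green, but post-PHx arrays were mostly lower. Their group median was 10.9 against 21.0 in green and 6.48 against 10.4 in red. The X chromosome signal matched the labelled sex on all 12 arrays: in green it lay between -0.98 and -0.91 in males and between -0.09 and -0.02 in females. None of the 228 spots of the 7 genes was saturated or failed to stand well above background, and 6 were left out as outliers. The slides were shared unequally. The first held PHx1M to PHx4M, the third held Spon1M to Spon4F, and the second alone held both groups, with PHx5M, PHx6F, Spon5F and Spon6F.

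The 7 genes lie in the order named on build mm8 (NCBI36). Crem has 2 probes, the first at chr18:3267485-3267544. The 2 probes of Cul2 start at 3387819 and 3417607, and the single probe of Bambi at 3512504. After a gap with few probes come Lyzl1 (2 probes from 4168555), Map3k8 (2 probes from 4331558), Papd1 (2 probes from 4383333) and Svil (6 probes from 4930495 to 5119089). The files give positions and names, and whether a probe lies in an exon or an intron was not determined. In the order of the RefSeq annotation of assembly GRCm38.p6, 8 protein-coding genes run from Crem to Svil, and the only one that is not a member is Jcad, named 9430020K01Rik in the files.

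Crem stood at or above 0.4 in 3 of 6 post-PHx and 2 of 6 spontaneous tumors. The study's methods set this level as the smallest mean ratio of an aberrant region, not of a gene. Here it was applied to gene means, so these counts are not made by the study's criterion. The paper reports the region with Crem as amplified in more tumors of each group. In PHx1M the Crem probes averaged 0.38, while the stretch of 183 probes that covers them, described below, averaged 0.45. Among post-PHx tumors, PHx2F had a Crem log2 ratio of 3.91, PHx3M of 0.89, PHx6F of 0.88, PHx1M of 0.38, PHx5M of 0.19 and PHx4M of 0.12. Among spontaneous tumors, Spon3F had 1.95, Spon6F 0.67, Spon1M 0.23, Spon4F 0.13, Spon2M 0.05 and Spon5F -0.36. Thus each group had 1 tumor far above the rest, 1 or 2 tumors between 0.67 and 0.89, and tumors near the level of the other autosomes. The ranges of the groups overlapped between 0.12 and 1.95. As a linear ratio, Crem reached 15.0 in PHx2F and 3.85 in Spon3F. The mean was 1.06 ± 1.43 (SD, n = 6) post-PHx and 0.44 ± 0.81 (SD, n = 6) in spontaneous tumors.

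All 7 genes were at or above 0.4 in the same 5 tumors, which were PHx2F, PHx3M, PHx6F, Spon3F and Spon6F. The share of all genes at this level was small in each of them: 3.02% in PHx2F, 5.85% in PHx3M, 1.53% in PHx6F, 0.818% in Spon3F and 1.12% in Spon6F. Since the genes were chosen for these ratios, nothing is read from that contrast. The lowest of the 35 gene values in these 5 tumors was 0.61, Cul2 in Spon6F. In the other 7 tumors the highest was 0.56, Lyzl1 in PHx1M. There, 3 genes passed 0.4 in PHx1M (background 2.73%), 1 in PHx4M (6.17%) and 1 in Spon4F (3.22%), and none in PHx5M (0.945%), Spon1M (7.06%), Spon2M (9.83%) or Spon5F (2.69%).

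**Figure D1:**
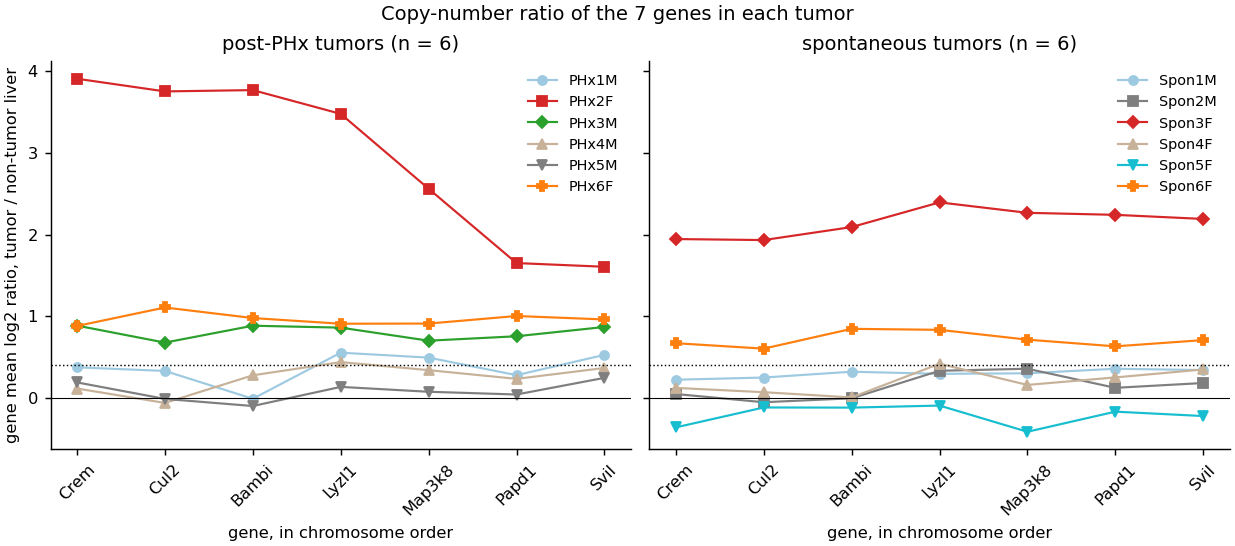
Mean log2 ratio of tumor over non-tumor liver (vertical axis) of each of the 7 genes in chromosome order (horizontal axis), 1 line per tumor, post-PHx on the left and spontaneous on the right; the dotted line marks 0.4. PHx2F falls from 3.91 at Crem to 1.61 at Svil, Spon3F stays between 1.93 and 2.39, and PHx3M, PHx6F and Spon6F run nearly level above the dotted line.

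The signalling genes followed Crem in most tumors. Bambi ranged from -0.10 in PHx5M to 3.77 in PHx2F over the post-PHx tumors, with a median of 0.58, and from -0.12 in Spon5F to 2.09 in Spon3F over the spontaneous tumors, with a median of 0.17. Its value rests on 1 probe, so it carries more of the single-probe noise than the other genes do. Map3k8 ranged from 0.08 in PHx5M to 2.56 in PHx2F post-PHx (median 0.60) and from -0.41 in Spon5F to 2.27 in Spon3F in spontaneous tumors (median 0.33). Map3k8 was at or above 0.4 in 4 post-PHx tumors, one more than Crem, because PHx1M stood at 0.50.

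Cul2, the ubiquitin ligase scaffold, ranged from -0.06 in PHx4M to 3.75 in PHx2F (median 0.51) and from -0.11 in Spon5F to 1.93 in Spon3F (median 0.16). Papd1, the mitochondrial poly(A) polymerase, ranged from 0.04 in PHx5M to 1.65 in PHx2F (median 0.52) and from -0.17 in Spon5F to 2.24 in Spon3F (median 0.31). Their order differed between the tumors with the highest ratios, since Cul2 was the higher of the pair in PHx2F and Papd1 in Spon3F. In PHx2F each of them was left with 1 of 2 probes after outlier spots were dropped.

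Lyzl1 was at or above 0.4 in 5 post-PHx and 3 spontaneous tumors, more often than any other of the 7. It ranged from 0.14 in PHx5M to 3.48 in PHx2F (median 0.71) and from -0.09 in Spon5F to 2.39 in Spon3F (median 0.38). One of its 2 probes carried the excess: the probe at 4168555 was above the probe at 4173923 in all 11 tumors where both were kept. Svil, the actin-binding gene with 6 probes and so the best measured, ranged from 0.25 in PHx5M to 1.61 in PHx2F (median 0.70) and from -0.22 in Spon5F to 2.19 in Spon3F (median 0.35). One Svil probe is printed 3 times on each array, and the SD among its spots had a median of 0.09 and a highest value of 0.15.

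Averaged over the 7 genes, the log2 ratio was 0.91 ± 1.06 (SD, n = 6) in post-PHx and 0.55 ± 0.84 (SD, n = 6) in spontaneous tumors. Both means lean on 1 tumor each. Without PHx2F the post-PHx mean was 0.49 ± 0.38 (SD, n = 5), and without Spon3F the spontaneous mean was 0.23 ± 0.33 (SD, n = 5).

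By this average, the tumors ran from PHx2F (2.96) and Spon3F (2.15) through PHx6F (0.97), PHx3M (0.81), Spon6F (0.72), PHx1M (0.37), Spon1M (0.30), PHx4M (0.25), Spon4F (0.20), Spon2M (0.14) and PHx5M (0.09) to Spon5F (-0.21). Neighbours in this order were compared probe by probe, setting the mean difference against the SD of the probe differences. The probes of 1 array are not replicates of a tumor, so that spread leaves out the variation between hybridizations. The pairs were also ranked by these same ratios, so the comparison is a description and not a test. By this description 2 of the 11 neighbouring pairs differed by more than the spread. For the other pairs a difference is not excluded. Spon3F was above PHx6F by 1.18 with an SD of 0.35, in 15 of 15 probes. PHx5M was above Spon5F by 0.35 with an SD of 0.26, in 17 of 17 probes. PHx2F and Spon3F had a mean difference of 0.46 within an SD of 1.19, but their profiles were unlike. PHx2F was higher in 8 of 14 probes. These included every shared probe from Crem to the first of Map3k8, while at most later ones it was lower. That SD thus holds the steps described below as well as noise. PHx6F and PHx3M did not differ beyond the spread, and neither did PHx3M and Spon6F. PHx6F and Spon6F, which are not neighbours in the order, did differ beyond it, by 0.27 with an SD of 0.15, in 16 of 16 probes.

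A ratio can rise because tumor DNA rises or because the liver DNA it is divided by falls, so the channels were read one at a time, each probe against its own median over the 12 arrays. In the green channel, non-tumor liver, the mean deviation of the 7 genes lay between -0.14 and 0.13 on all 12 arrays. In the red channel, tumor DNA, it was highest in PHx2F at 2.40, followed by Spon3F at 1.73, PHx6F at 0.58, Spon6F at 0.43 and PHx3M at 0.31, and in the remaining tumors it ran from -0.10 in Spon4F down to -0.63 in Spon5F. PHx2F, Spon3F and PHx6F thus led in red in the same order as in the ratios, while Spon6F and PHx3M changed places. In green, PHx2F and Spon3F stood at -0.14 and -0.05. Single genes were less steady within a channel: Crem in PHx1M was at -1.05 in red and -1.16 in green, which cancel in the ratio.

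**Figure D2:**
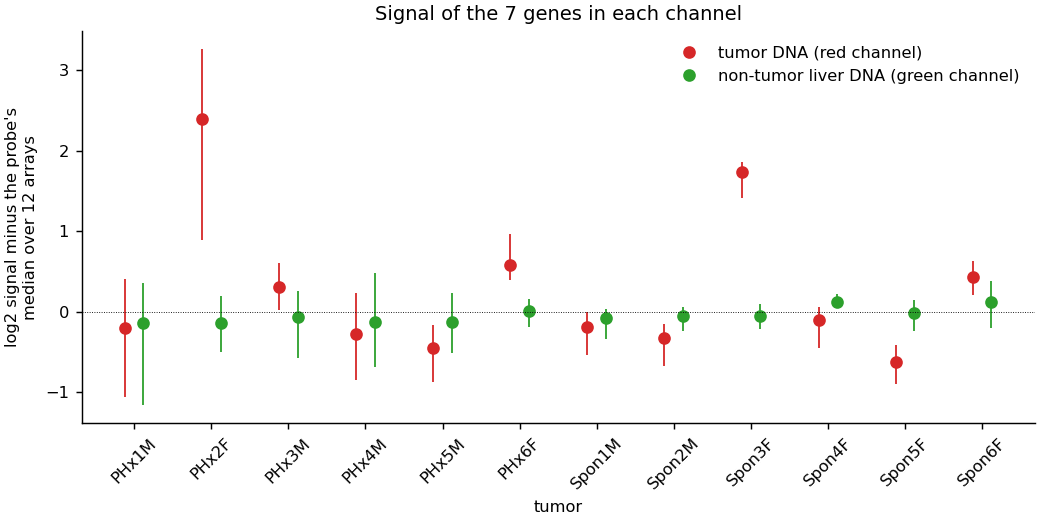
Log2 processed signal of the 7 genes minus each probe's median over the 12 arrays (vertical axis) for each tumor (horizontal axis), in the tumor channel (red) and the non-tumor liver channel (green); points are means over 7 genes and lines run from the lowest to the highest gene. Green means stay between -0.14 and 0.13, while red means reach 2.40 in PHx2F and 1.73 in Spon3F.

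The 7 genes were then set against the part of chromosome 18 beyond 20 Mb, which holds 1024 probes. Its median lay between -0.32 in Spon6F and 0.33 in Spon1M. In PHx2F the genes were 3.00 above it, in Spon3F 2.27, in PHx6F 1.11, in Spon6F 1.04 and in PHx3M 0.94. A smaller excess was found in PHx1M (0.40) and PHx4M (0.31). In Spon1M, Spon2M, Spon4F, Spon5F and PHx5M the same difference lay between -0.12 and -0.03. The values of 0.30 in Spon1M and 0.20 in Spon4F are thus no higher than those of the chromosome beyond 20 Mb (0.33 and 0.32). In Spon6F the opposite held, since the genes stood at 0.72 on a chromosome with a median of -0.32 beyond 20 Mb.

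**Figure D3:**
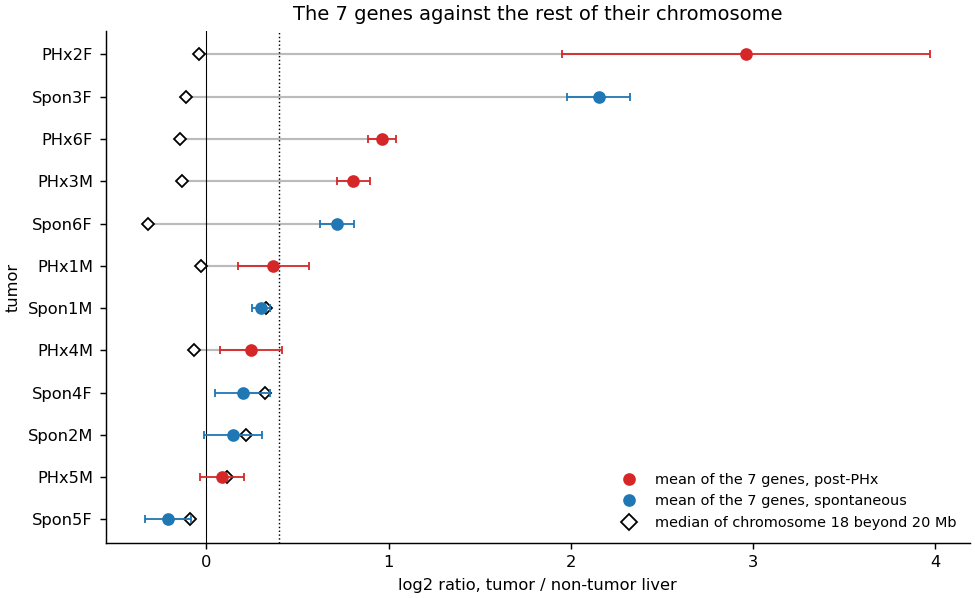
Log2 ratio (horizontal axis) by tumor (vertical axis, ordered by the mean of the 7 genes): filled points are means of the 7 genes with bars for the SD over genes, open diamonds the median of chromosome 18 beyond 20 Mb, and the dotted line 0.4. The 7 genes stand apart from the diamond in the upper 6 tumors and in PHx4M, and lie beside or below it in Spon1M, Spon4F, Spon2M, PHx5M and Spon5F.

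The genes did not share 1 level in every tumor. The ratio along the chromosome was divided into pieces of constant level by least squares, with a penalty of 10 noise variances for each step and at least 2 probes a piece. In PHx3M, PHx5M, PHx6F, PHx1M, Spon5F and Spon6F, 1 piece covered all 7 genes. In the other 6 tumors a step fell among them, and in 4 of these, PHx4M, Spon1M, Spon2M and Spon4F, the pieces that held member genes were all between 0.01 and 0.37. In Spon1M and Spon2M only a piece of 2 probes without a member gene parted the members. In both it held the single probe at 4493983 described below. The pieces on its sides were at 0.31 and 0.37 in Spon1M and at 0.12 and 0.26 in Spon2M. With a penalty of 5 noise variances 8 tumors had such a step, and with 20 noise variances 4 did, Spon1M and Spon2M among them.

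In PHx2F the step cut through Map3k8. The 7 probes from 3254025 to 3617617, which hold Crem, Cul2 and Bambi, had a mean of 3.79, a linear ratio of 13.8. The next 4 probes, with Lyzl1 and the first Map3k8 probe, had a mean of 3.40. From the other Map3k8 probe at 4349202 on, 28 probes had a mean of 1.69, a linear ratio of 3.23. The Map3k8 probes themselves were at 3.41 and 1.71, and the drop lies in the 17.6 kb between them. Crem, Cul2, Bambi and Lyzl1 together stood at 3.73, which is 2.10 above the mean of Papd1 and Svil, or 4.28-fold in linear terms. In the other 11 tumors the same difference lay between -0.15 and 0.07. Map3k8's gene mean of 2.56 in PHx2F is therefore an average of unlike values that no probe showed.

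In Spon3F the order was reversed, with the higher level further from the centromere. The first 7 probes, 5 of them from Crem, Cul2 and Bambi, had a mean of 1.99, a linear ratio of 3.96. The next 9 probes, 6 of them from Lyzl1, Map3k8 and Papd1, had a mean of 2.31. Within Svil the ratio changed again. Its probe at 5055956 read 2.09, that at 5095222 read 1.22, and the last, at 5119030, read 3.05. The low reading at 5095222 is not particular to Spon3F. That probe was also the lowest of Svil in PHx3M (0.65) and Spon6F (0.43). Whether the probe itself reads low was not tested. The last Svil probe begins a piece of 15 probes with a mean of 3.08, a linear ratio of 8.48, that runs over Zfp438, Zeb1 and Arhgap12. The gene mean of Svil in Spon3F, 2.19, likewise joins probes on both sides of a step.

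**Figure D4:**
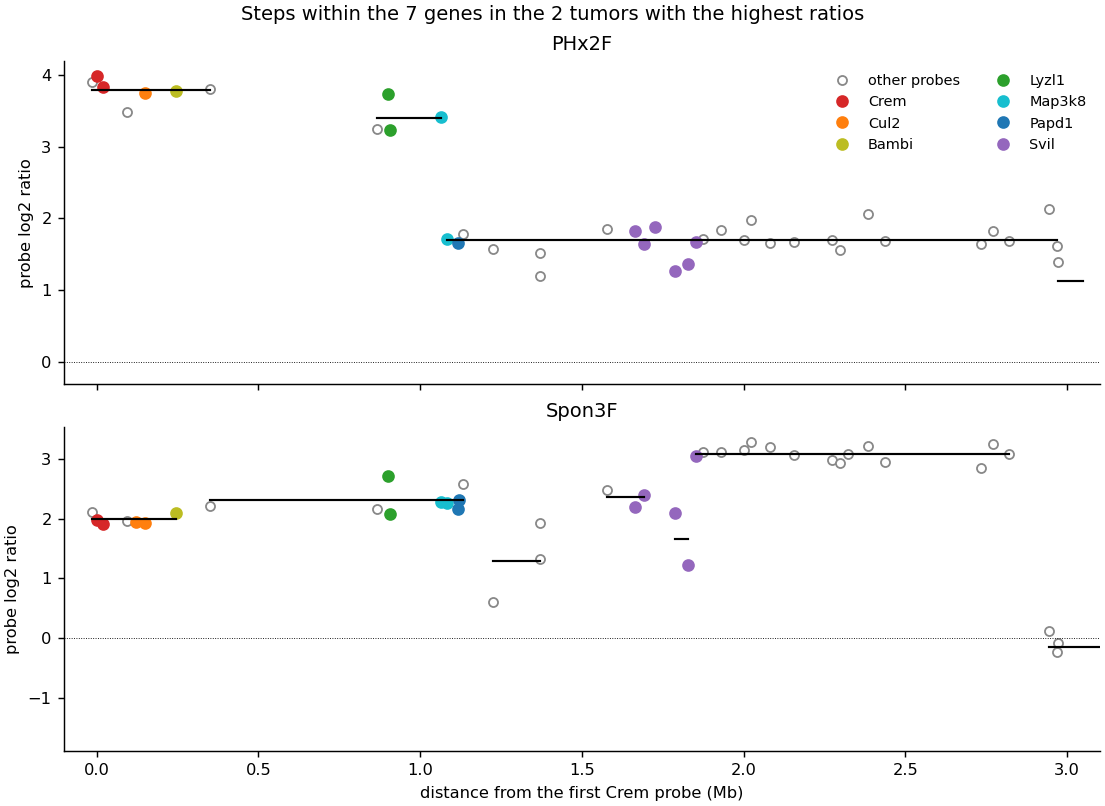
Log2 ratio of single probes (vertical axis) against distance from the first Crem probe in Mb (horizontal axis) in PHx2F (top) and Spon3F (bottom); filled points are probes of the 7 genes, open points other probes, and black lines the mean of each piece of constant ratio. PHx2F drops from 3.41 to 1.71 between the probes of Map3k8, and Spon3F climbs to 3.05 at the last Svil probe.

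Probes between and just beyond the genes showed how far they share their level. The first probe of the chromosome on the array, at 3254025 and before Crem, read 3.90 in PHx2F and 2.10 in Spon3F, as Crem did. The transcripts AK086784 and AK034630, each with 1 probe between Crem and Lyzl1, read 3.48 and 3.81 in PHx2F and 1.96 and 2.21 in Spon3F. AK220524 has 1 probe on each side of the Map3k8 step and averaged 2.51 in PHx2F. Jcad, the only protein-coding gene between the members that is not one of them, had means of 1.36 in PHx2F, 1.62 in Spon3F, 0.83 in PHx6F and 0.62 in Spon6F, somewhat under Papd1 and Svil on either side in each of these tumors.

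A single probe of AK011593 at 4493983, between Papd1 and Jcad, read -1.14 in Spon1M, 2.29 in Spon2M and 0.60 in Spon3F, where the gene means of Papd1 were 0.36, 0.13 and 2.24. These 3 tumors share the third slide, and each reading was far from those of the surrounding genes. In the other 9 tumors it read from -0.08 to 1.58. It lies in the short pieces between the genes in Spon1M and Spon2M.

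Within 1 Mb after Svil lie Zfp438, AK138232, Zeb1, AY423051 and Arhgap12. In PHx2F these stood between 1.63 and 1.87, like Svil. In Spon3F they stood between 2.85 and 3.21, above the mean of each of the 7 genes. In PHx6F they ranged from 0.85 to 1.14 and in Spon6F from 0.70 to 0.91, close to the members. Zeb1, a transcription factor that represses epithelial genes, was at 1.87 in PHx2F, 3.08 in Spon3F, 1.14 in PHx6F, 0.91 in Spon6F and 0.83 in PHx3M. The highest ratio thus lay over Crem, Cul2 and Bambi in PHx2F and beyond Svil in Spon3F.

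The gain that covers the genes reached different distances. It was followed from the first probe as long as pieces averaged at least 0.4, passing over pieces of 2 or 3 probes below that level. In Spon3F it ended after 6086688 and before 6211058, 2.83 Mb from the first probe, and the level fell by 3.23 to -0.14. In Spon6F it reached 10818056, over 7.56 Mb, passing over 2 probes at -0.27. Without passing over these it ended at 6992960, 3.74 Mb from the first probe. In PHx6F it reached 14768151 (11.5 Mb), in PHx2F 15756739 (12.5 Mb) and in PHx3M 16960911 (13.7 Mb). These are the points where pieces fell under 0.4. The next piece was still at 0.33 in PHx6F, up to 17044153, and at 0.23 in PHx2F, up to 20114564. In PHx3M it was at -0.14.

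PHx1M also had 1 piece of 183 probes over 13.8 Mb, with a mean of 0.45. The 7 genes averaged 0.37 there, just under the filter. With a penalty of 5 noise variances PHx1M no longer had a first piece at or above 0.4. The stretch common to all 6 tumors ran from 3254025 to 6086688, holds 40 probes and 17 names in the files, and includes all 7 genes. Its far end is set by Spon3F alone. In PHx3M the end falls in a stretch of 3143 kb without used probes before 20104301, and cannot be placed more closely. In PHx1M the level fell under 0.4 across the same stretch, there of 3060 kb, but only to 0.25. It stayed at that level over 51 probes to 22058099, and the next piece was at -0.02.

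**Figure D5:**
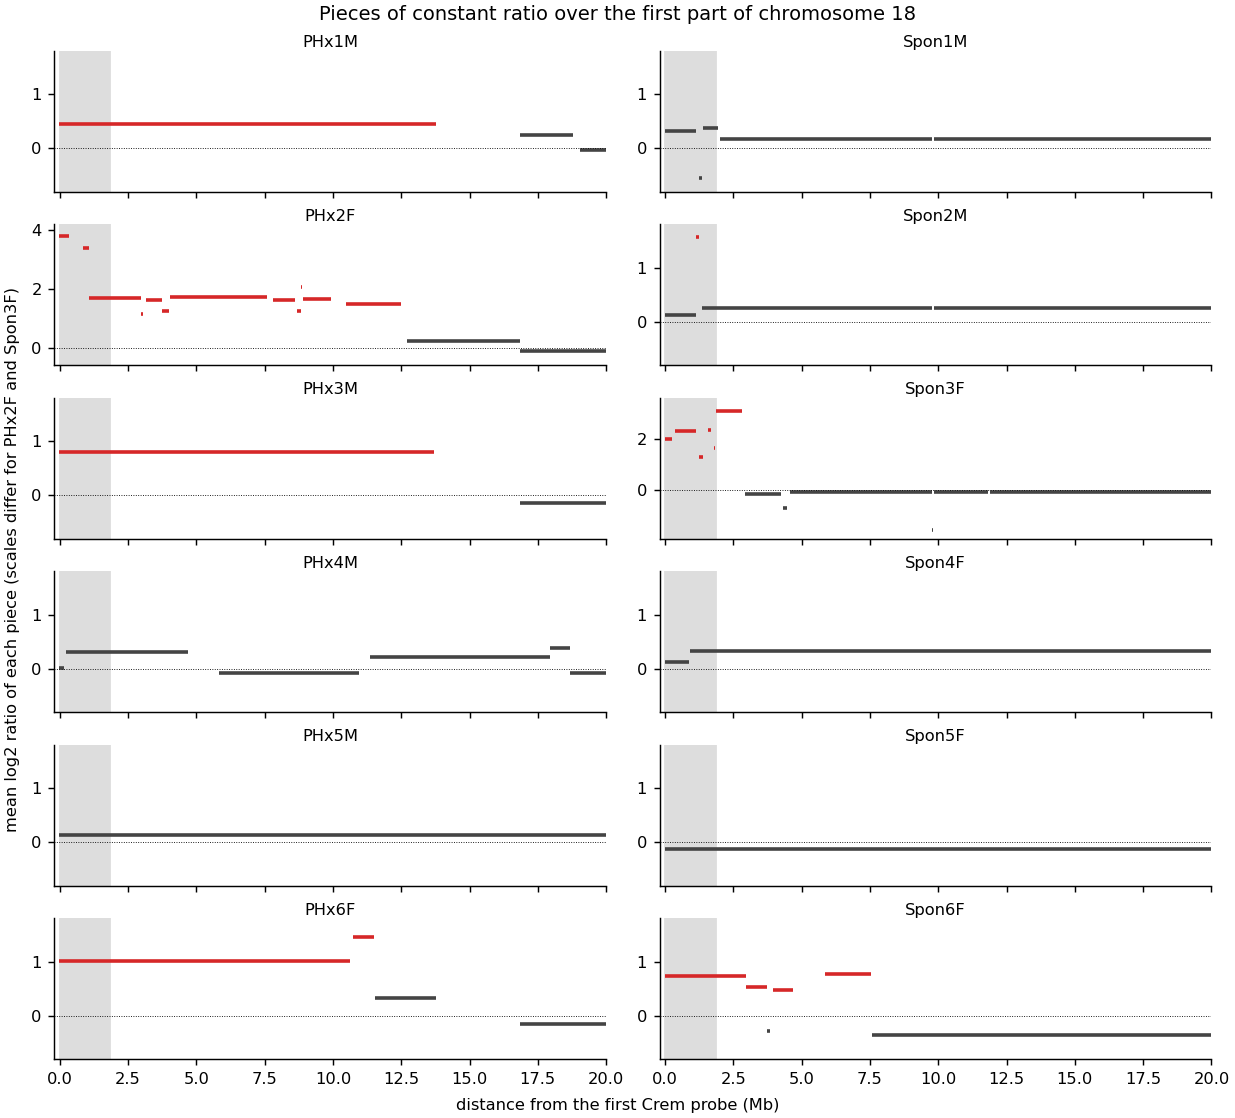
Mean log2 ratio of each piece of constant level (vertical axis, with wider scales for PHx2F and Spon3F) against distance from the first Crem probe in Mb (horizontal axis), post-PHx tumors on the left and spontaneous on the right; red pieces average at least 0.4 and grey shading marks Crem to Svil. The stretch of pieces at or above 0.4 ends 2.83 Mb from the first probe in Spon3F and between 11.5 and 13.8 Mb from it in the post-PHx tumors that have one. A piece with a lower but still raised level follows it in PHx1M, PHx2F and PHx6F.

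The study compared post-PHx with spontaneous tumors. No gene of 20563 tested passed limma's adjusted p threshold of 0.05 (background 0.0%), while 867 (4.22%) had an unadjusted p under 0.05. For Crem the post-PHx minus spontaneous difference was 0.62 with a standard error of 0.59 (limma adjusted p = 0.987). The other 6 genes differed by 0.09 (Papd1) to 0.52 (Cul2), and 0 of the 7 had an unadjusted p under 0.05. These values come from the ratios that chose the genes and are no independent evidence. Leaving out PHx2F turned the difference negative in 5 of the 7 genes, between -0.12 for Bambi and -0.04 for Cul2, while leaving out both PHx2F and Spon3F gave 0.20 to 0.35. Sex was unbalanced between the groups, with 2 females post-PHx and 4 in spontaneous tumors. With sex as a covariate and all tumors kept, the differences of the 7 genes were 0.34 to 1.03. Crem was then at 1.03 (limma adjusted p = 0.820). These values too come from the ratios that chose the genes.

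On the only slide with both groups, the differences were 0.08 to 0.38, from 2 tumors against 2. The same values came with slide as a block, since no other slide informs the contrast. The difference of Crem there was 0.38 (limma adjusted p = 0.842 within the slide), made of PHx5M at 0.19 and PHx6F at 0.88 against Spon5F at -0.36 and Spon6F at 0.67. On all 3 slides the groups differ in slide, and slide and group cannot be told apart outside the second.

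Sex was not used to choose the genes, although the pattern was known when this comparison was set. It was run on the same ratios that chose the genes, so the values of the 7 genes in it are no independent evidence either. All 7 genes were at or above 0.4 in 4 of 6 females and 1 of 6 males. The 7-gene average ran from 0.97 to 2.96 in the 2 post-PHx females and from 0.09 to 0.81 in the 4 post-PHx males. The nearest of them, PHx6F and PHx3M, did not differ beyond the spread of their probe differences. How many of all genes split these tumors by sex was not counted. In spontaneous tumors the 7-gene average ran from -0.21 to 2.15 in the 4 females, on both sides of the 2 males at 0.14 and 0.30.

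With group in the model, limma called no gene of 20563 between the sexes (background 0.0%), and 1870 genes (9.09%) had an unadjusted p under 0.05. The female minus male difference of Cul2 was the largest of the 7, at 1.36 with a standard error of 0.51 (limma adjusted p = 0.549). For Crem it was 1.23 with a standard error of 0.54 (limma adjusted p = 0.549), and Svil had the smallest, 0.64 with a standard error of 0.34 (limma adjusted p = 0.560). All were positive, and 4 of 7 had an unadjusted p under 0.05, but the genes lie side by side and share their gains, so they do not count as separate observations. PHx2F and Spon3F are both females: without them the differences shrank to between 0.10 for Map3k8 and 0.40 for Cul2.

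Likeness to Crem was described by Pearson's r of gene means over the 12 tumors, among 11266 genes with at least 2 probes and values on all arrays. Among the members it was 0.99 for Cul2, 0.98 for Lyzl1, 0.95 for Map3k8, 0.84 for Papd1 and 0.83 for Svil, decreasing with distance from Crem. Bambi, with 1 probe, was not among the genes compared. Without PHx2F and Spon3F all 5 lay between 0.92 and 0.98, and Svil was then the closest. On the rest of chromosome 18, AK220524 (0.93), Jcad (0.85), AY423051 (0.82), AK011593 (0.78) and Zeb1 (0.78) were most like Crem. AY423051 has probes on both sides of the end of the Spon3F gain, which brings its mean there to 0.23.

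On other chromosomes the closest were all on chromosome 4: Calb1 (0.90), Cyp7a1 (0.90), Nbn (0.88), Tmem55a (0.88) and Otud6b (0.88). They begin between 6199736 and 15892291, and 4 of them between 14744512 and 15892291. Calb1 encodes a calcium-binding protein, Cyp7a1 the rate-limiting enzyme of bile acid synthesis, and Nbn a subunit of the complex that senses DNA breaks. In PHx2F they stood between 0.57 for Cyp7a1 and 1.74 for Tmem55a, while in Spon3F the highest was Calb1 at 0.28. Without PHx2F and Spon3F their r with Crem was 0.29 to 0.58. Without PHx2F alone it was 0.40 to 0.73, and without Spon3F alone 0.89 to 0.93.

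Pathway and family relatives of the 7 genes were described in 7 lists, and all but 3 of the 145 measured genes lie on other chromosomes. Of the 145, 36 (24.8%) were at or above 0.4 in at least 1 tumor, a share near that of all genes. Over all 19778 genes measured on 12 arrays, 28.5% were at or above 0.4 in at least 1 tumor, 27.2% at or below -0.4 in at least 1, and the median was 0.00. Of 32 measured genes of cAMP and CREB signalling, 6 reached 0.4 in some tumor and 6 fell to -0.4. Their median was -0.01, and none reached 0.4 in 3 or more tumors. The highest was Adcy8, an adenylyl cyclase on chromosome 15, at 3.04 in Spon1M and below 0.1 in all other tumors, and the lowest Adcy6 at -2.04 in Spon3F.

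Of 21 cullins and cullin ligase subunits, 10 reached 0.4 in some tumor and 5 fell to -0.4, with a median of 0.04. Cul7 on chromosome 17 was the highest at 1.49 in Spon6F, with 0.74 in PHx6F and 0.44 in Spon1M, and Parc the lowest at -0.60 in Spon3F. Cul7 and Klhdc2 were the 2 of the list at or above 0.4 in 3 tumors, a level that 3.83% of all genes reached in at least 3. Of 26 BMP and activin ligands, receptors and Smads, 8 reached 0.4 and 10 fell to -0.4. Bmp7 was at 1.16 in Spon2M, the highest, and at or above 0.4 in 4 tumors, and Inhba at -1.50 in Spon1M, the lowest.

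In the kinase cascade of Map3k8, 4 of 25 genes reached 0.4, led by Map3k2 at 0.83 in PHx2F, and 8 fell to -0.4, with Map2k2 lowest at -0.98 in Spon3F. Map3k2 also lies on chromosome 18 but outside the gain, and stood at -0.33 in Spon3F. Among 18 genes of mitochondrial RNA synthesis and poly(A) polymerases, 3 reached 0.4 and 5 fell to -0.4. Mterf, a mitochondrial transcription termination factor on chromosome 5 with 1 probe, was highest at 1.90 in PHx3M and was at or above 0.4 in 5 tumors. Papola, a nuclear poly(A) polymerase on chromosome 12, was at or above 0.4 in 3 tumors, at 0.52 in Spon4F, 0.46 in Spon1M and 0.41 in Spon2M, and Polg2 was lowest at -0.72 in PHx1M.

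Of 18 villin and gelsolin relatives and partners of Svil, 5 reached 0.4 and 4 fell to -0.4, from Scin at 2.68 in Spon1M to Vill at -1.73 in Spon3F. Vill was also at or above 0.4 in 3 tumors, at 1.05 in Spon2M, 0.74 in PHx4M and 0.45 in Spon4F. None of the 5 measured lysozyme genes passed 0.4 in either direction, with Spaca3 highest at 0.36 in Spon3F and Spaca5 lowest at -0.31 in Spon2M. The medians of the 7 lists lay between -0.03 and 0.07, and the lists were written with earlier results of these arrays known.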

How the data were processed

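Genomic DNA of 12 tumors was hybridized against matched non-tumor liver on 2-colour Agilent CGH arrays. Per the file headers, Feature Extraction 10.5.1.1 subtracted background and scaled the dyes, with probe positions on mm8 (NCBI36). The deposited log10 ratio (red over green, tumor over non-tumor liver) was multiplied by log2(10); the deposited processed signal intensity of each channel gave the single-channel values, and the deposited mean and background intensity an alternative ratio.

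Outlier-flagged spots were dropped, replicate spots averaged by probe, and each array centred on its autosomal median. The ratio equalled that of the processed signals within 0.001 (log10) for at least 99.7% of spots. Gene values are means over probes. Genes measured in at least 10 of 12 tumors were fitted in limma 3.58.1 (R 4.3.3), post-PHx against spontaneous, and female against male with group as covariate, two-sided, with Benjamini-Hochberg adjustment over all genes. The fit was tested on simulated data. Steps were found by penalized least squares (Python 3.11.15, numpy 2.4.6). The study's own segmentation was not used here.

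The 7 genes, the gene lists and the tests were chosen with earlier results of these data known. The genes named besides the 7 are those between them and within 1 Mb after Svil, the 5 most like Crem on chromosome 18 and the 5 on other chromosomes, and the highest and lowest gene of each list; genes of a list that reached 0.4 in at least 3 tumors were named after their values were seen. Per the study, a group held 6 mice. The number of arrays limits the precision. Sequence was not analysed here. Alternatives covered background correction, centring, probe filters, the unit of the fit, slide, the tumor number as a block, sex as a covariate and leaving out each tumor.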

Additional observations from a re-analysis of the deposited data

Results flagged for a closer look

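Within a group of 6 tumors, a value stood apart when its gap to the nearest other value exceeded 0.625 of the group's range, Dixon's critical value. Chance exceeds it in about 1 of 20 groups, but that rate does not hold here, since the 7 genes were chosen for high ratios in these tumors, and the values are a description. PHx2F stood apart as the highest post-PHx tumor for Crem (3.91), Cul2 (3.75), Bambi (3.77), Lyzl1 (3.48), Map3k8 (2.56) and the mean of the 7 genes (2.96), but not for Papd1 and Svil, which lie beyond its step. Spon3F stood apart as the highest spontaneous tumor for Cul2 (1.93), Lyzl1 (2.39) and Papd1 (2.24), and its gap was between 0.553 and 0.668 of the range in all 8 measures. No tumor stood apart at the low end. The genes are neighbours and the measures are not separate observations. The red signal was high and the green signal near its median in both tumors, as given above, and 2 of the outlier spots of the 7 genes, 1 each in Cul2 and Papd1, were on the PHx2F array.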

How the results depend on the processing

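Neither comparison called a gene under any alternative run. Between post-PHx and spontaneous tumors 0 were called, with 581 to 1292 genes at an unadjusted p under 0.05. Between the sexes 0 were called, with 1007 to 3295 genes. When the fit was by probe, 1446 and 3307 of 35875 probes had an unadjusted p under 0.05, and 0 were called. The mean of the 7 genes ranged from 0.86 to 0.92 post-PHx and from 0.55 to 0.56 in spontaneous tumors over the other background correction, centrings, probe filters and the median over probes, and from 0.49 to 1.07 and from 0.23 to 0.70 with 1 tumor left out. The 3 post-PHx tumors with Crem at or above the filter were 4 with a filter of 0.25 and 2 or 3 of 5 with 1 left out, and the 2 spontaneous tumors were 1 or 2 of 5. The group difference changed sign in 8 of 168 values of the 7 genes. With 1 tumor left out it was lowest without PHx2F and highest without Spon3F in all 7 genes, and ran from -0.039 to 0.81 for Cul2, -0.118 to 0.76 for Bambi, -0.117 to 0.70 for Lyzl1, -0.060 to 0.62 for Map3k8 and -0.110 to 0.42 for Papd1, and stayed above 0 for Crem and Svil. By probe it was -0.015 for Papd1, which was also -0.0021 without Spon2M and -0.060 without Spon5F. The sex difference kept its sign in all 161 values, between 0.10 and 1.84. As a replicate block, the shared tumor number called 0 genes in either comparison (860 and 2089 at an unadjusted p under 0.05). Same-numbered tumors deviated together at r between -0.03 and 0.04 for 5 numbers and 0.44 for the sixth, so the numbers were not taken as pairs. Fits without both PHx2F and Spon3F, r without either of them, and the comparison of PHx6F with Spon6F were added after the data were seen. Probe spacing and single-probe noise limit where a step can be placed and how small a gain can be seen.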
